A study of Mus musculus with 8 samples.

Results

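A set of 6 genes of the TLR9 and NF-kB inflammatory axis were followed in 8 sections of mouse brain hemisphere bearing GL261 glioma. They are Tlr9, Nfkbia, Tnf, Il1b, Il6 and Nos2, which are 6 of the 100 genes on the panel, and each was taken by its target name in the molecule list of every section. Transcripts had been detected one by one by Resolve single-molecule fluorescence in situ hybridization, so the unit is the detected molecule. The treatments, given into the brain, were PBS, anti-PD1 (antiPD1), CpG-STAT3ASO and the combination of both agents, 2 sections for each, and hemispheres were taken at day 21. Each sample's label gives 4 intracranial treatments. All 8 sections carry the same tumour line, a mouse glioma line grown as a graft, so no section is tumour-free by design. The labels give no strain, age or dose, and do not say that the 2 sections of a treatment come from separate animals. P-values therefore measure only the spread between these sections, which may be technical.

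TLR9 is an endosomal receptor for DNA rich in unmethylated CpG. It signals through MyD88 to NF-kB, which is held in the cytoplasm by inhibitors such as the product of Nfkbia and which switches on inflammatory genes, Nfkbia among them. Tnf and Il1b encode inflammatory cytokines, Il6 encodes a cytokine that signals through STAT3, and Nos2 encodes the inducible nitric oxide synthase of activated macrophages. CpG-STAT3ASO joins, by its name, a CpG sequence and an antisense oligonucleotide (ASO) against Stat3. In mice TLR9 is known from macrophages, dendritic cells, B cells and microglia.

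Promoters are shown for the 3 members whose share rose with CpG-STAT3ASO and for Nfkbia, the feedback inhibitor, because NF-kB binding at promoters is how this axis is known to act. They come from RefSeq on GRCm38.p6, run 5′ to 3′ on the gene's strand from 250 bases before to 50 bases after the start, and capitals mark a match to the kappaB consensus on either strand. The Tlr9 window is chr9:106222348-106222647 (plus strand), that of Tnf chr17:35201958-35202257 (minus), that of Il6 chr5:30012864-30013163 (plus) and that of Nfkbia chr12:55492598-55492897 (minus).
Tlr9: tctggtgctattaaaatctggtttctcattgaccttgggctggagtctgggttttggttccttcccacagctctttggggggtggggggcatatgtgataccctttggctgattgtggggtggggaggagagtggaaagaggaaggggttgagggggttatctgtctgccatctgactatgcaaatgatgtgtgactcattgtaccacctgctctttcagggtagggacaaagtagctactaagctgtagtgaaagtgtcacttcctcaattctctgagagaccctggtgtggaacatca
Tnf: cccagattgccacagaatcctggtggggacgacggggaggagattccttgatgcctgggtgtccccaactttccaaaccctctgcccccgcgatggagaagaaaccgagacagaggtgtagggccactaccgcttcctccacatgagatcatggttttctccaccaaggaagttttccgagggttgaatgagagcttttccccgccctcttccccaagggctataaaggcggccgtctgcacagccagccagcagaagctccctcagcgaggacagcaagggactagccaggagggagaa
Il6: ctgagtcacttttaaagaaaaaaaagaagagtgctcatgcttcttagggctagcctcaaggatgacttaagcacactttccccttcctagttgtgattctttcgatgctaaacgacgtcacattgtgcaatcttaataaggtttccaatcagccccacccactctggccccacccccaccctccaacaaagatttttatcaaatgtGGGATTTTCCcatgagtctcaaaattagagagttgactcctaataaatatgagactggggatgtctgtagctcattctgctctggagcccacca
Nfkbia: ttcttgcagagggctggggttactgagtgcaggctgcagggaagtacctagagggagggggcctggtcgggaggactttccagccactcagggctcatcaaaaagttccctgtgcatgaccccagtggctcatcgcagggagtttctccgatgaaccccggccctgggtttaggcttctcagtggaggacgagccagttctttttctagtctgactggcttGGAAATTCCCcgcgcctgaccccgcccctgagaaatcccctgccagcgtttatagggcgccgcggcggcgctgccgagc
Of the 6 members 5 were matched in the promoter table, Il1b being the fifth. Il6 held 1 match, at positions -44 to -35 from the start, and Nfkbia held 1, at -29 to -20. No match lay in the windows of Tlr9, Tnf and Il1b. The consensus was found in 8.46% of the 32851 promoter windows of this length. TATAAA, searched on both strands and not overlapping these matches, lay in the windows of Nfkbia, Tnf and Il1b and in 13.6% of all windows. A match describes the letters and is not evidence of a site in use.

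A section held 1664837 to 6987530 gene molecules and 2155 to 2405 tissue bins (squares of 360 pixels). Targets named FP, 28 codes read here as false-positive codes, made up 0.106 to 0.306% of molecules, and the code FP 13 alone was 53.0 to 86.6% of them. Bins were classed by their molecules of Mki67 and Birc5, a proliferation marker and a mitotic survival factor, as low-proliferation (under 10), intermediate (10 to 99) or dense (100 or more). Dense bins numbered 714 and 965 with PBS, 827 and 1090 with antiPD1, 23 and 33 after CpG-STAT3ASO and 22 and 78 after the combination. Values for dense bins of sections given CpG-STAT3ASO therefore rest on few bins, with 28983 to 200942 gene molecules in all. No gene of the brain cell list is on the panel, so the labelled tissue was checked only by the proliferation genes and by Tmem119, a microglia gene.

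Levels are given as CPM, the molecules of a gene scaled to 1000000 gene molecules of the same section or bin class, and as molecules per bin. Detection differs between probe sets, so the levels of different members were not compared. Where groups or zones are said not to overlap in CPM or per bin, the share of all genes doing so was not counted. Lists of 4 values run PBS replicates 1 and 2, then antiPD1 replicates 1 and 2, for sections without CpG-STAT3ASO, and CpG-STAT3ASO replicates 1 and 2, then combination replicates 1 and 2, for those with it. Tlr9, Nfkbia, Tnf, Il1b and Nos2 exceeded the 90th percentile of the FP codes in 8 of 8 sections. Tlr9 lay at 5.26 to 13.5 times that level without CpG-STAT3ASO and at 34.8 to 62.6 times with it. Il6 did not reach it in any of the 4 sections without CpG-STAT3ASO, at 0.25 to 0.58 times, and passed it in 3 of 4 with it, at 0.92 to 2.80 times. Against the highest single code, FP 13, Nfkbia was higher in all 8 sections, Tlr9 in 1 of 4 without and 4 of 4 with CpG-STAT3ASO, Tnf in 0 and 1, Il1b in 3 and 0, and Nos2 in none. Il6 differences thus rest on a base at the level of these codes.

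Tlr9, the receptor, took a larger share of molecules in every section given CpG-STAT3ASO. Its whole-section level was 681 and 391 CPM with PBS and 826 and 459.8 CPM with antiPD1, against 3107 and 2122 CPM after CpG-STAT3ASO and 2401 and 3059 CPM after the combination. The highest section without the agent lay well under the lowest section with it, so the groups did not overlap. The means were 2672 ± 488 and 589 ± 200.3 CPM (SD, n = 4 each), a ratio of 4.53. In the fit over all 100 genes, which averages the effect over the pairs with and without antiPD1, the log2 difference was 2.22 (SE 0.398, 95% interval 1.38 to 3.06, limma adjusted p = 0.000383). Counted per tissue bin, Tlr9 was 1.29, 1.27, 2.47 and 1.24 molecules without and 2.21, 2.34, 1.84 and 4.99 molecules with CpG-STAT3ASO. These values overlap, through antiPD1 replicate 1, and the fitted difference per bin was 0.81 (limma adjusted p = 0.164). The 2 scalings have different centres, since the panel's median difference was 0.63 in CPM and -0.77 per bin, and on each Tlr9 lay above that median. In bulk sums over a section, fewer cells of a type and less RNA per cell cannot be told apart.

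Of the downstream members, Tnf and Il6 also took a larger share with CpG-STAT3ASO. Tnf, the gene of tumour necrosis factor, was at 305, 270.5, 271 and 157 CPM without the agent. It stood at 569 and 699.8 CPM after CpG-STAT3ASO and 668 and 1463 CPM after the combination, and the fitted difference was 1.69 (SE 0.480, limma adjusted p = 0.00898). The groups did not overlap, and combination replicate 2 stood far above the other 3. Il6 was at 32.5, 18.9, 35.1 and 28.6 CPM without and 49.9, 164, 79.3 and 59.9 CPM with CpG-STAT3ASO (log2 difference 1.46, SE 0.547, limma adjusted p = 0.0380). Those levels did not overlap either, but they stand for only 132 to 233 and 83 to 397 molecules per section. Per bin the differences were 0.29 for Tnf and 0.08 for Il6, and neither passed. With median-of-ratios size factors Tnf (1.01, limma adjusted p = 0.0923) and Il6 (0.79, limma adjusted p = 0.235) did not pass, while Tlr9 did (1.54, limma adjusted p = 0.00414). Subtracting the mean of the FP codes also ended the calls of Tnf (1.81, limma adjusted p = 0.0532) and Il6 (2.61, limma adjusted p = 0.330). The Il6 call was lost without any 1 of 5 sections, with a difference of 1.04 and limma adjusted p = 0.198 without CpG-STAT3ASO replicate 2 and 1.27 and 0.160 without PBS replicate 2.

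**Figure D1:**
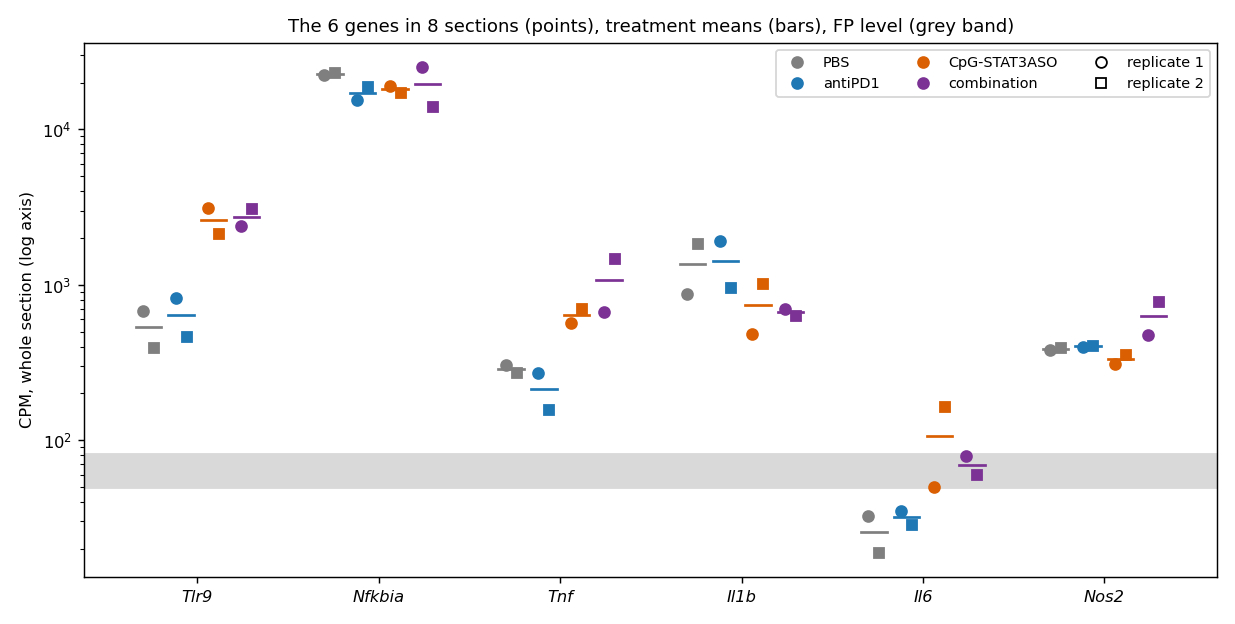
Whole-section level of each of the 6 genes in CPM (log axis); each point is 1 section, bars are treatment means of 2 sections, and the grey band is the range over sections of the 90th percentile of the FP codes. Tlr9 and Tnf lie higher in all 4 sections given CpG-STAT3ASO, Il1b reaches 1911 CPM without it, and Il6 lies in or near the band.

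Il1b, Nfkbia and Nos2 did not pass this test in CPM. Il1b, the gene of interleukin-1 beta, was at 876, 1836, 1911 and 951 CPM without and 484, 1006, 699 and 631 CPM with CpG-STAT3ASO (log2 difference -0.94, SE 0.443, limma adjusted p = 0.100). CpG-STAT3ASO replicate 2 reached into the range of the sections without the agent. Per bin, Il1b was 1.65, 5.95, 5.71 and 2.57 molecules without and 0.344, 1.11, 0.535 and 1.03 molecules with it. These values did not overlap, and on that scale (-2.35, limma adjusted p = 0.0236) and with median-of-ratios factors (-1.62, limma adjusted p = 0.00735) Il1b was lower. On these 2 scales 31 and 34 of 100 genes were called in either direction. Per low-proliferation bin, Il1b overlapped between the groups, with a ratio of means of 1.75 (with over without the agent). Nfkbia was at 22349, 23153, 15386 and 18640.1 CPM without and 19032, 17214, 25187 and 13881 CPM with CpG-STAT3ASO, fully overlapping (-0.09, limma adjusted p = 0.879). Per bin it was lower with the agent, at 18.6 ± 3.77 against 53.4 ± 14.8 molecules (SD, n = 4 each; difference -1.51, limma adjusted p = 0.00807). Dense bins held 74.4 to 86.6% of gene molecules without and 1.74 to 5.12% with CpG-STAT3ASO. The part of this in the per-bin values of Il1b and Nfkbia was not tested. Nos2 was at 381, 394, 397 and 406 CPM without and 308, 353, 474 and 776 CPM with CpG-STAT3ASO. The first 4 sections lay close together and the others on both sides of them (0.18, limma adjusted p = 0.797; -1.23 per bin and -0.50 with median-of-ratios factors, neither passing).

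In all, 3 of the 6 members rose in CPM and none fell, where 43.0% of all genes were called, 35.0% higher and 8.0% lower. The median log2 difference was 0.82 over the members and 0.63 over all genes. Against PBS alone CpG-STAT3ASO raised Tlr9 (2.31, SE 0.563, limma adjusted p = 0.0102), the 1 member called where 25% of genes were. Tnf differed by 1.13 (limma adjusted p = 0.226) and Il6 by 1.83 (limma adjusted p = 0.0968). The combination against antiPD1 raised Tlr9 (2.14, limma adjusted p = 0.0142) and Tnf (2.26, SE 0.679, limma adjusted p = 0.0248), 2 members where 28.0% of genes were called. The Tlr9 call against PBS was lost without PBS replicate 2 (limma adjusted p = 0.160) or CpG-STAT3ASO replicate 1 (0.116), and the calls against antiPD1 were lost without antiPD1 replicate 2 (0.152 for Tlr9 and 0.164 for Tnf). Per bin and with median-of-ratios factors the Tlr9 difference against antiPD1 was 0.79 and 1.44, and neither passed. The Tnf call against antiPD1 was also lost without combination replicate 2 (1.69, limma adjusted p = 0.115).

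AntiPD1 moved none of the 6 genes past the test. Its average differences ran from -0.19 for Nfkbia to 0.46 for Nos2 (limma adjusted p = 0.998 for each), and 0 of 100 genes were called, with 1 at an unadjusted p under 0.05. The interaction, which asks whether the effect of CpG-STAT3ASO was the same with antiPD1 as without, was -0.18 for Tlr9 and 1.12 for Tnf, with 95% intervals of -1.86 to 1.502 and -0.90 to 3.15. It was called for 0 genes, with 3 at an unadjusted p under 0.05. With 2 sections a treatment these intervals span several-fold changes, so a difference of that size was not detectable here.

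Bin classes compare the level of the axis within set ranges of Mki67 and Birc5 molecules. They need not hold like tissue in both groups of sections. Low-proliferation bins with 20 or more Cd68 molecules, a macrophage gene, numbered 2 to 16 per section without and 163 to 385 with CpG-STAT3ASO. In low-proliferation bins, Tlr9 was at 983, 1435, 827 and 819.7 CPM without and 2664, 1576, 2147 and 2382 CPM with CpG-STAT3ASO. The groups did not overlap, and per bin (0.626, 1.10, 0.602 and 0.524 against 1.69, 1.45, 1.52 and 3.06 molecules) they did not overlap either. The ratio of means was 2.16 in CPM and 2.71 per bin. The fit put the CPM difference at 1.12 (SE 0.323, limma adjusted p = 0.0556) and the per-bin difference at 1.43 (limma adjusted p = 0.0264), so the call depends on the scale. It also passed in a fit with 2 groups in place of 4 (limma adjusted p = 0.0243). Tnf in the same bins was at 236, 289, 220.4 and 177 CPM without and 466, 428, 407 and 913 CPM with it, again without overlap (1.20, SE 0.387, limma adjusted p = 0.0718). Il1b, Il6, Nfkbia and Nos2 overlapped between the groups, with limma adjusted p from 0.459 to 0.947. No member passed in CPM, where 9.18% of genes were called higher and none lower. Nfkbia per low-proliferation bin was 15.8 ± 3.09 molecules with and 15.7 ± 1.37 without CpG-STAT3ASO (SD, n = 4 each).

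Inside dense bins, Tlr9, Tnf and Il6 stood higher with CpG-STAT3ASO. Tlr9 was at 556, 233, 721 and 399 CPM without and 4005, 3526, 3485 and 3469 CPM with it, which did not overlap (3.04, SE 0.406, limma adjusted p = 0.00132). Tnf was at 275, 233, 252 and 148 CPM without and 926, 1255, 2691 and 1712 CPM with it, also without overlap (2.78, SE 0.404, limma adjusted p = 0.00162). The Tnf values with the agent stand for 31, 105, 78 and 344 molecules, and those of Tlr9 for 134, 295, 101 and 697. Il6 was at 25.02, 13.5, 27.2 and 21.2 CPM without and 89.7, 95.6, 276 and 164 CPM with it (2.68, SE 0.576, limma adjusted p = 0.00919), from 3, 8, 8 and 33 molecules. The lowest Il6 values with the agent are thus counts of single molecules. Nos2 did not overlap, with means of 385 ± 20.2 and 695 ± 123 CPM (SD, n = 4 each), yet did not pass (0.83, limma adjusted p = 0.107). Macrophage markers in the same dense bins summed to 7611 to 15936 CPM without and 51554 to 102002 CPM with the agent. The T cell markers, of which Cd4 and Cd28 were called higher, summed to 837 to 1800 and 6814 to 14905 CPM. The part of either list in the members' differences was not tested. The 3 members of 6 stand against 37.8% of genes called, 31.6% of all genes higher and 6.12% lower.

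Per dense bin Tlr9 was 2.43, 1.44, 4.75 and 2.02 molecules without and 5.83, 8.94, 4.59 and 8.94 molecules with CpG-STAT3ASO. Combination replicate 1, at 4.59, fell below the highest section without it. For Tnf and Il6 the per-bin differences in dense bins were 1.24 (limma adjusted p = 0.0934) and 1.19 (0.235), and with a dense limit of 200 that of Tnf in CPM did not pass (limma adjusted p = 0.0816). In intermediate bins Tlr9 was at 1175, 941, 2511 and 982 CPM without and 3909, 2872, 3254 and 3515 CPM with the agent. The groups did not overlap, but antiPD1 replicate 1 was far above the other 3 sections without it, and the fit did not pass (1.39, SE 0.388, limma adjusted p = 0.082; 0.0176 without that section). No member passed there, where 4.21% of genes were called higher.

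**Figure D2:**
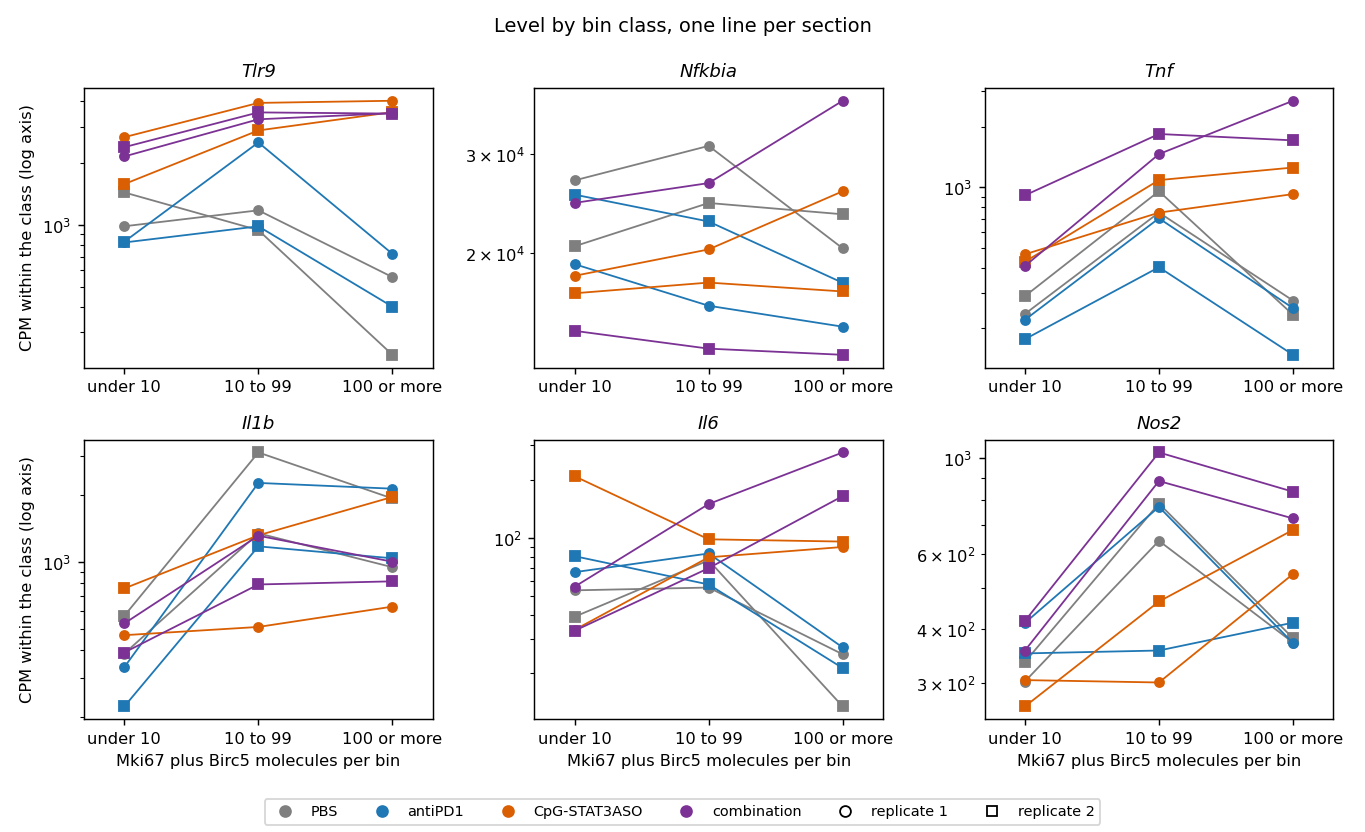
CPM of each gene (log axis) in low-proliferation, intermediate and dense bins, with 1 line per section coloured by treatment. Tlr9 is lower in dense than in low-proliferation bins in each section without CpG-STAT3ASO and higher in each section with it; Il1b is higher in dense than in low-proliferation bins in all 8 sections.

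Without CpG-STAT3ASO, the members were arranged differently around the proliferating tissue. Dense bins held 80.3, 89.4, 91.7 and 94.4% of the Il1b molecules and 74.4, 85.1, 82.0 and 86.6% of all gene molecules of the same sections. Its level was 945, 1929, 2136 and 1037 CPM in dense and 386, 571, 335 and 223 CPM in low-proliferation bins of the same sections, a difference of 1.98 (SE 0.296, limma adjusted p = 0.00159). The lowest dense value exceeded the highest low-proliferation value. Il6 fell in dense bins (-1.42, SE 0.346, limma adjusted p = 0.0138), a call that turned to 1.501 per bin and to 0.65 after subtraction of the FP mean and was lost without antiPD1 replicate 1 (0.0595) or antiPD1 replicate 2 (0.0586). Tlr9 was lower in dense bins in 4 of 4 sections in CPM (-1.17, SE 0.415, limma adjusted p = 0.0504) and higher per bin (1.82). Of the 6 members 1 was higher and 1 lower, where 56.1% of genes were called, 28.6% higher and 27.6% lower, and the members' median was -0.16 against 0.17 for all genes.

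Around the dense tissue, Tnf, Il1b and Nos2 stood higher at the margin, 1 to 3 bins outside, than in tissue at least 10 bins outside. Tnf was at 696, 825, 629 and 322 CPM at the margin and 135, 208, 162 and 68.4 CPM in distant tissue (2.13, SE 0.369, limma adjusted p = 0.000563). Its margin level also exceeded that of bins 1 to 3 inside the dense tissue, at 292, 236, 262 and 152 CPM, in each of the 4 sections. As a share of molecules, Tnf was thus higher in a ring at the edge than in these zones on either side. Per bin, it was 6.52 to 10.3 times as high in dense as in low-proliferation bins of these sections. The ring is therefore not shown for molecules per bin. Il1b was at 1079, 3115, 1883 and 729 CPM at the margin and 340.2, 250.1, 181 and 193 CPM in distant tissue (2.64, SE 0.418, limma adjusted p = 0.000292). Nos2 was at 589, 774, 730.5 and 463 CPM at the margin and 261, 270.0, 363 and 180.3 CPM in distant tissue (1.26, SE 0.349, limma adjusted p = 0.00885). Neither gene overlapped between the zones. Markers of other cells moved in the same comparison. All 5 measured NK cell markers were higher at the margin (median 2.36), as were Cd3d and Cd8a of 4 T cell markers, Ccr7, Irf8 and Itgax of 5 dendritic cell markers tested (Flt3 was lower) and Ccr2 and Msr1 of 7 macrophage markers, and their part in the members' differences was not tested. The Nos2 call was lost with median-of-ratios factors (0.37, limma adjusted p = 0.442).

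The receptor itself was less sharply placed. Tlr9 was at 1252, 1076, 2261 and 989 CPM at the margin, 1061, 1657, 779.9 and 839 CPM 4 to 9 bins outside, and 712, 1221, 593 and 597 CPM in distant tissue. The difference between margin and distant tissue was 0.82 (SE 0.388, limma adjusted p = 0.0807), and PBS replicate 2 alone ran the other way. Without PBS replicate 2 it passed (limma adjusted p = 0.0142). At 4 or more bins inside the dense tissue Tlr9 was at 395, 191, 665 and 444 CPM, below its level in each of the 3 zones outside in all but antiPD1 replicate 1. Nfkbia did not pass, at 30605, 22549, 16126 and 25124 CPM at the margin and 25124, 21342, 20730.2 and 22151 CPM in distant tissue (limma adjusted p = 0.905). Margin and distant values are shares of molecules, and 62.1% of genes were called in this comparison, 49.5% higher and 12.6% lower, beside 3 of 6 members higher. The medians were 1.04 for the members and 0.94 for all genes.

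**Figure D3:**
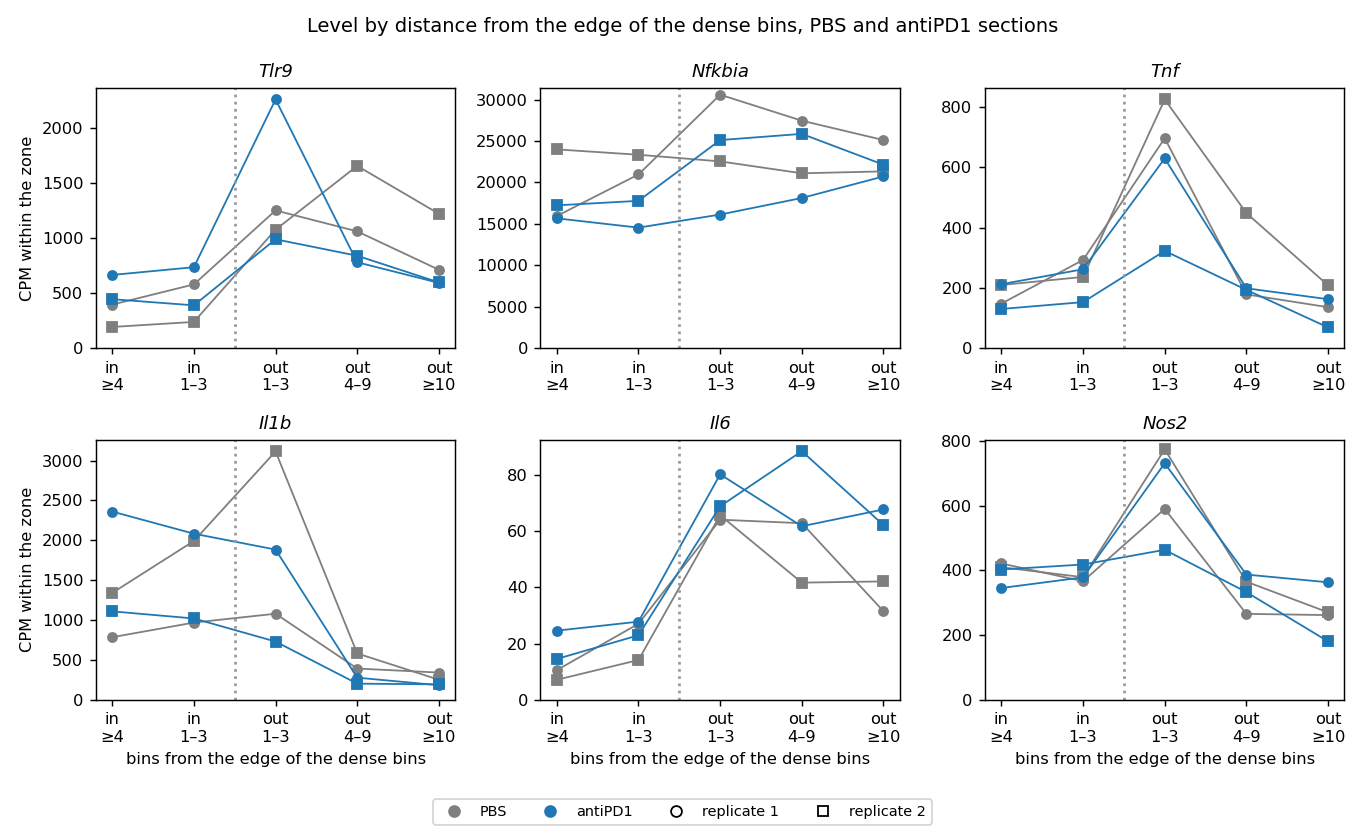
CPM of each gene (linear axis) in 5 zones by distance from the edge of the dense bins, in the 4 sections given PBS or antiPD1, 1 line per section. Tnf peaks 1 to 3 bins outside, between 322 and 825 CPM, and Il1b is high inside and at the margin and low beyond.

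With CpG-STAT3ASO, zones refer to far fewer dense bins. Tlr9 was at 4751, 2894, 3259 and 3682 CPM 1 to 3 bins outside them and at 1635, 719.5, 1226 and 1371 CPM at 10 or more bins. The second range overlaps that of sections without the agent (593 to 1221 CPM). Tnf ran from 1111, 1059.6, 1388 and 1931 CPM to 203, 212, 189 and 387 CPM over the same step. For Il1b the gradient between classes depended on the agent. It was at 1344, 3113, 2268 and 1174 CPM in intermediate and 386, 571, 335 and 223 CPM in low-proliferation bins without CpG-STAT3ASO. With it the values were 508, 1316, 1311 and 790.1 CPM against 467, 758, 527 and 389.8 CPM. The step was positive in all 8 sections and smaller with the agent (difference of differences -1.54, SE 0.315, limma adjusted p = 0.0106; -1.37 and 0.0705 without CpG-STAT3ASO replicate 1). The other 5 members did not pass. Of all genes 29.9% were called, 9.28% higher and 20.6% lower, beside this 1 member of 6 lower.

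**Figure D4:**
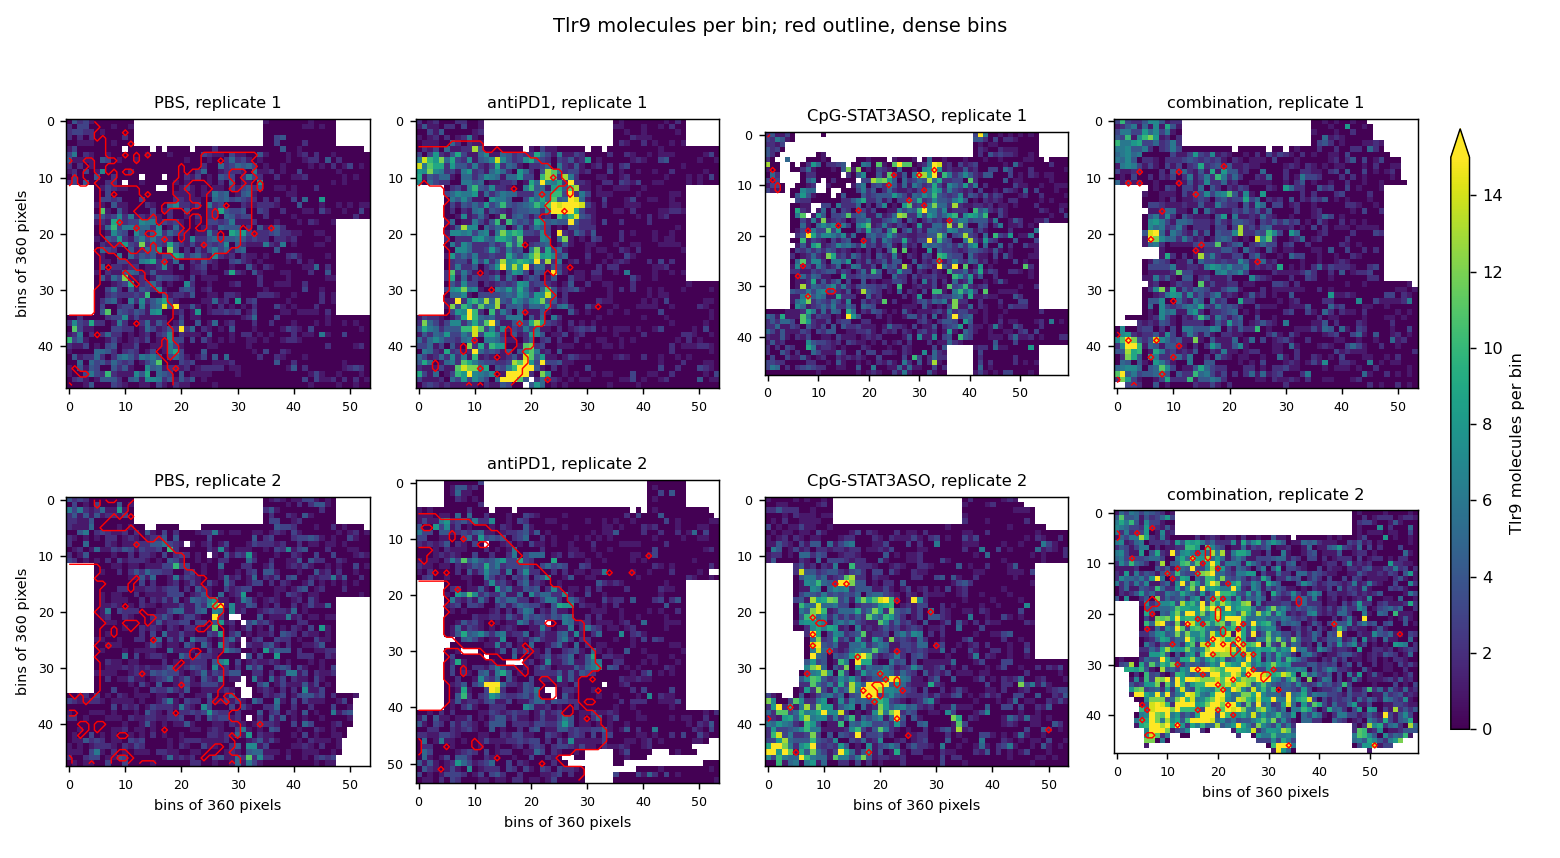
Tlr9 molecules per bin of 360 pixels in each of the 8 sections (colour from 0 to 15 molecules), with bins classed as dense outlined in red. Dense bins cover large areas without CpG-STAT3ASO (714 to 1090 bins) and small ones with it (22 to 78). Per bin, Tlr9 was 1.31 to 7.90 times as high in dense as in low-proliferation bins without the agent and 2.92 to 6.18 times with it.

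Macrophage markers moved with the same groups as Tlr9. The 7 measured of 12 macrophage markers summed to 12204 to 23109 CPM without and 52693 to 94736 CPM with CpG-STAT3ASO over whole sections, and to 36476 to 45839 and 45568 to 81985 CPM in low-proliferation bins. Adgre1, Ccr2, Cd68, Csf1r and Msr1 of these 7 were called higher with the agent over whole sections and in dense bins, and Adgre1 and Msr1 in low-proliferation bins. Csf1r, a receptor of macrophages and microglia, leads the sum of these markers. Low-proliferation bins of CpG-STAT3ASO replicate 2 held 65936 marker molecules. In 1571 of these bins 43039 were Csf1r, 12844 Cd68 and 6525 Adgre1. A ratio to the sum is thus weighted to Csf1r. Per 100 macrophage marker molecules Tlr9 was 3.76 ± 0.886 with and 3.51 ± 0.837 without CpG-STAT3ASO over whole sections (SD, n = 4 each; log2 difference 0.09, two-sided exact permutation p = 0.714). In low-proliferation bins it was 3.63 ± 0.922 and 2.38 ± 0.549 (0.60, exact permutation p = 0.0571, adjusted over 12 ratios 0.137). Nfkbia (-2.22), Il1b (-3.07) and Nos2 (-1.95) per whole-section marker molecule were lower without overlap, as was Nfkbia in low-proliferation bins (-0.84). Each of these 4 had the smallest exact p that 4 against 4 sections allow, 0.0286, and an adjusted value of 0.0857, so none passed. Of the 93 genes on the same scale 52.7% did not overlap over whole sections, all of them lower, and of 91 genes in low-proliferation bins 16.5% did not, 6.59% higher and 9.89% lower. The sign of the Tlr9 ratio depends on the marker, at -0.38 per Cd68 and -1.24 per Adgre1 molecule over whole sections. Per Adgre1 molecule 9 of the 12 ratios were lower without overlap and passed (adjusted exact permutation p = 0.0381), where 87.1% of genes over whole sections and 57.1% in low-proliferation bins were lower without overlap.

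Markers of other immune cells moved too. The 4 measured of 8 T cell markers summed to 2310 to 8853 CPM without and 14062 to 25672 CPM with CpG-STAT3ASO over whole sections, without overlap, with Cd4 and Cd8a called higher. In low-proliferation bins the sums overlapped, at 13645 to 51765 and 21248 to 27657 CPM. Cd4 weighs heavily in them. In CpG-STAT3ASO replicate 2, 1571 low-proliferation bins (all but 4 bins rich in Il6, described below) held 29142 Cd4 molecules. The same bins held 421 molecules of Cd28 and 127 of Cd3d. A sum led by 1 gene need not follow the number of T cells. The 1 measured plasmacytoid dendritic cell marker, Ly6d, was at 78.6 to 197 CPM without and 71.1 to 1229 CPM with the agent and was called higher (1.83, limma adjusted p = 0.0441). The 6 measured of 10 dendritic cell markers summed to 19783 to 29974 and 17533 to 28462 CPM, with Flt3 called higher (2.48) and Itgax lower (-0.95). Tmem119, the 1 measured microglia marker, was at 4334 to 19523 and 5574 to 12571 CPM (-0.27, not passed). Ly6g, the 1 measured neutrophil marker, was at 8.01 to 11.6 and 7.39 to 23.4 CPM. The part of any of these cell types in the Tlr9 and Tnf differences was not tested.

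When low-proliferation bins were grouped by their Cd68 molecules, a macrophage gene, Tlr9 per bin was higher at each step of Cd68 in both groups of sections. In bins without Cd68 it was 0.199 molecules without and 0.241 with CpG-STAT3ASO, and in bins with 1 to 4 Cd68 molecules 0.512 and 0.639. In bins with 5 to 19 it was 1.13 ± 0.401 and 1.83 ± 0.486, and at 20 or more 3.27 ± 0.798 and 5.31 ± 1.82 (SD, n = 4 each). The means of Nfkbia, Tnf, Il1b, Il6 and Nos2 were also higher at each step. Nfkbia went from 9.28 to 25.2 molecules without and from 8.35 to 22.4 with the agent. Il1b went from 0.175 to 0.413 without and from 0.0637 to 1.33 with it. The last stratum held 2 to 16 bins per section without and 163 to 385 with the agent. These are descriptions, without a test. Panel genes other than the members were not grouped this way, so a rise common to all genes cannot be told apart.

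At close range, members differed in how tightly their own molecules gathered. The measure is the log2 ratio of the density within 100 pixels of a molecule to that in a ring of 400 to 600 pixels, and FP codes gave a median of 0.894. Tlr9 lay at 0.86 to 1.66 over the 8 sections, near that level, and Nfkbia at 0.53 to 1.62. Tnf lay at 1.84 to 3.82, Il1b at 1.77 to 4.43, Nos2 at 2.33 to 3.82 and Il6 at 4.23 to 6.92 in the 7 sections with enough molecules. Il1b was tighter with CpG-STAT3ASO (3.12 to 4.43) than without (1.77 to 2.72), without overlap, and so was Nfkbia (1.08 to 1.62 against 0.53 to 0.73). Of 86 panel genes 76.7% had a higher mean with the agent and 41.9% did not overlap, 40.7% tighter and 1.16% looser, and the median over genes was 2.08 with and 1.47 without the agent. For FP codes these medians were 1.01 and 0.80. Of 53 values of FP codes 2 exceeded 2, at 4.33 and 7.80, so single FP values reached the range of Il6. In these sections the cytokine genes and Nos2 gave higher ratios than the receptor.

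**Figure D5:**
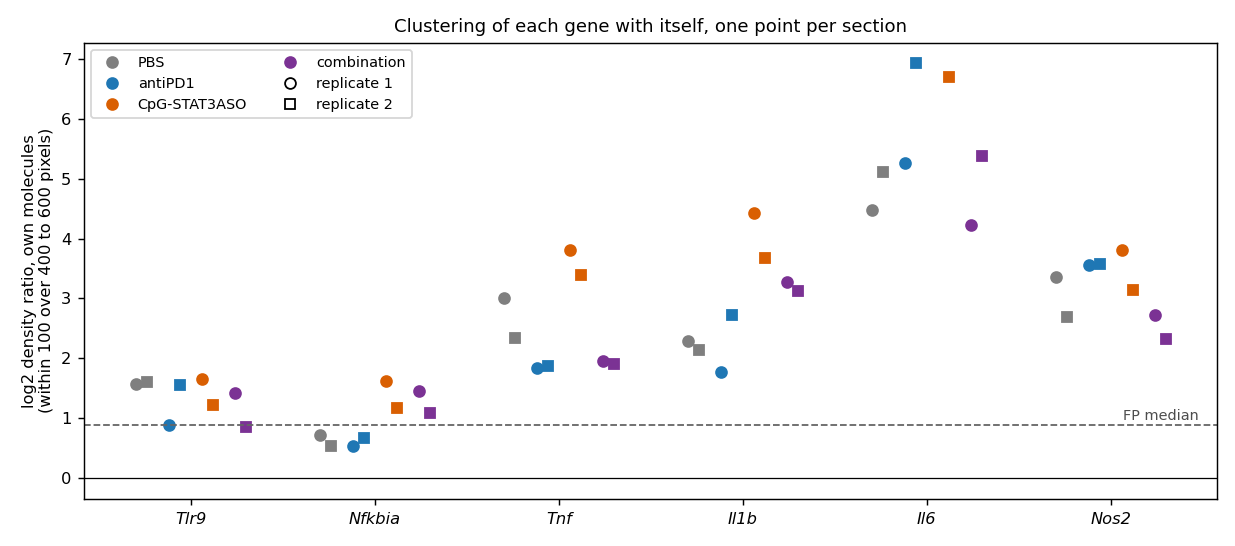
Log2 density ratio of each gene's own molecules (within 100 pixels against 400 to 600 pixels), 1 point per section coloured by treatment; the dashed line is the median of the FP codes, 0.894. Il6 lies highest (4.23 to 6.92) and Tlr9 near the line (0.86 to 1.66).

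The same order appeared in the share of a gene's molecules held by the richest 1% of tissue bins. It had a median over sections of 39.8% for Il6 (36.5 to 71.5), 22.5% for Nos2 (15.4 to 33.4), 19.5% for Il1b (13.7 to 35.6) and 16.4% for Tnf (12.1 to 27.5). For Tlr9 it was 7.86% (5.31 to 8.68) and for Nfkbia 5.56% (4.27 to 7.25). Nfkbia was present in a median of 98.99% of bins, Tlr9 in 59.7% and Il6 in 5.18%. A gene with few molecules fills fewer bins, and the part of this in the order was not tested.

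Around Tlr9 molecules, the genes that were densest among 63 with enough molecules were Cd86 (1.24, mean over 8 sections), a costimulatory ligand of antigen-presenting cells, Csf1r (1.19), the receptor that sustains macrophages and microglia, and Ccr7 (1.17), a chemokine receptor of migrating dendritic cells. The panel median was 0.52 and the FP value 0.13. Around Tnf they were Ccl4 (1.69), a chemokine, Pdcd1 (1.63), the gene of PD-1, and Ccl3 (1.59), also a chemokine. Around Il1b they were Ccr7 (1.77), Ccl4 (1.36) and Il2ra (1.32), and around Nos2 they were Cd40 (1.55), Tnfrsf9 (1.29) and S1pr1 (1.22). Nfkbia had lower values, led by Ccr7 (0.97), Fas (0.91) and Tnfrsf9 (0.89). Il6 had too few molecules for this measure.

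Between members, the density ratios that involve Nfkbia had higher means in the sections given CpG-STAT3ASO. The Tlr9 to Nfkbia ratio was 0.57 ± 0.158 with and 0.21 ± 0.0474 without the agent (SD, n = 4 each; two-sided exact permutation p = 0.0286). For Nfkbia with Tnf it was 0.90 and 0.31, with Il1b 0.92 and 0.27, with Nos2 1.13 and 0.49, and with Il6 1.30 and 0.53. Tnf with Nos2 gave 1.08 and 0.76. Each of these 6 of 15 pairs did not overlap between the groups and had that smallest possible p, but the adjusted value was 0.0714, so none passed. Such a shift was common on the panel. Of 7310 ordered pairs of 86 genes 30.6% did not overlap, 28.4% higher and 2.23% lower, and around Nfkbia molecules 65.9% of 85 genes were higher without overlap. Tlr9 with Tnf gave 0.94 and 0.81 (exact permutation p = 0.371). With a radius of 200 pixels 2 pairs had the smallest p.

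Few other genes of the pathway are on the panel, and their counts stand beside the 43.0% of all genes that were called, with 35.0% of all genes higher. Of 24 receptors and adaptors 1 was measured, Cd14, a co-receptor, with a whole-section difference of -0.08 by CpG-STAT3ASO, and of 14 NF-kB factors and inhibitors 0 were measured. Of 14 cytokine targets 5 were measured and 2 rose, Il12b (2.75, limma adjusted p = 0.002) and Il12a (1.93, limma adjusted p = 0.021), the subunits of interleukin-12, while Il23a had a difference of -0.86. Of 15 chemokine targets 6 were measured, 4 rose and 1 fell. Ccl5, which draws T cells, rose by 3.35 and Ccl22, Ccl3 and Ccl4 by 2.45, 2.31 and 1.31, while Cxcl10, known as a target of interferon as well, fell by 2.59. Of 8 costimulatory and adhesion targets 4 were measured, and Cd80 (2.12) and Cd86 (1.62) rose, while Cd40 (0.19) and Cd274 (0.34) did not pass. In low-proliferation bins 3 of the chemokines rose, Ccl22, Ccl3 and Ccl5, and no gene of the other pathway lists in this paragraph did. At the margin without CpG-STAT3ASO, where 49.5% of all genes were higher, Ccl4, Ccl5, Cxcl10 and Cxcl9 rose beside Tnf and Il1b, as did Cd274, Cd40 and Il10, and Il12a fell.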

How the data were processed

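Per the labels, GL261 brain tumours were imaged by Resolve smFISH with a panel of 100 genes. The deposited files list molecules, each with a position in pixels and a target name, so the values the authors give are positions, a unit other than counts per gene, and they were tallied here. Seurat 4.2.0 is listed in the submitters' processing notes, with no role stated. For spot calling and pixel size, the sources used here give nothing.

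Molecules were tallied per gene, section, bin class and distance zone, with tissue bins of at least 20 molecules. Log2(CPM + 1) of genes averaging 10 or more molecules was fitted with 4 group means by limma 3.58.1 (lmFit, eBayes with trend, R 4.3.3), with Benjamini-Hochberg adjustment over all genes and a threshold of 0.05. Comparisons between bin classes or zones of the same sections kept the section as a block. Single values were compared by two-sided exact permutation of sections (70 assignments, smallest p 0.0286). Density ratios had 0.5 added. The fits were tested on simulated data. Alternatives covered scaling, pseudocount, filters, bin size, class limits, the fit and leaving out each section. The members and lists were chosen with earlier results of these data known. The text names all 6 members, of each list up to 3 measured genes with the highest mean and, around each member, the 3 densest genes. Other genes were named after their values were seen.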

Additional observations from a re-analysis of the deposited data

Results flagged for a closer look

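Of 48 groups of 4 sections (6 genes, 4 regions, with and without CpG-STAT3ASO), 5 held 1 section far from the other 3 by Dixon's criterion, which chance gives in about 1 of 20 groups. Tlr9 in intermediate bins without CpG-STAT3ASO was highest in antiPD1 replicate 1, at 2511 CPM against 941 to 1175 CPM. Tlr9 in dense bins with the agent was highest in CpG-STAT3ASO replicate 1, at 4005 CPM, where the other 3 lie within 3469 to 3526 CPM. Tnf with the agent was highest in combination replicate 2 over the whole section (1463 CPM) and in low-proliferation bins (913 CPM). Il6 in low-proliferation bins with the agent was highest in CpG-STAT3ASO replicate 2, at 208 CPM against 33.1 to 55.9 CPM. The step of Il1b from low-proliferation to intermediate bins differed by CpG-STAT3ASO, by -1.54 on the log2 scale (limma adjusted p = 0.0106).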

How the results depend on the processing

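Depth limits Il6 throughout and the members other than Nfkbia in the few dense bins of sections given CpG-STAT3ASO. Per tissue bin, Nos2 by CpG-STAT3ASO turned to -1.23 (whole section) and -0.70 (dense bins), Tnf against PBS to -0.34, Il6 of the combination against antiPD1 to -0.22, and Tlr9 and Il6 in dense against low-proliferation bins to 1.82 and 1.501. Median-of-ratios factors turned Nos2 to -0.50 and -0.30 (whole and dense) and Tlr9 at the margin to -0.066. Subtracting the FP mean turned Nos2 to -0.0015 and Il6 in dense against low-proliferation bins to 0.65, and a dense limit of 200 turned Nos2 in dense bins to -0.24. Tlr9 per marker molecule was -0.38 (Cd68 alone) and -1.24 (Adgre1 alone) over whole sections and -0.017 and -0.85 in low-proliferation bins. With Adgre1 alone 9 of 12 ratios, against 4, had the smallest exact p. At a radius of 200 pixels 2 pairs had it, against 6. With the highest FP code as the limit 31 of 48 levels, against 5, were not above it.

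Counts of genes called moved with the scaling, the bins and the fit. Subtracting the FP mean gave 24 in place of 43 (whole section), 4 in place of 9 (low-proliferation), 5 in place of 25 (against PBS) and 15 in place of 28 (combination against antiPD1). Per bin these were 16 (low-proliferation), 12 (against PBS), 14 (combination) and 94 in place of 55 (dense against low-proliferation), and with median-of-ratios factors 3, 13 and 13 for the first 3. A fit with 2 groups gave 15 in low-proliferation bins. In intermediate bins 180-pixel bins gave 22 and an upper limit of 200 gave 27, in place of 4, and that limit gave 24 in dense bins, in place of 37. The Il1b comparison of classes by CpG-STAT3ASO had 18 genes without trend, 19 with 720-pixel bins and 18 with a lower limit of 5, in place of 29. The dense comparison could not be run with 720-pixel bins, since 2 sections had none.

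Leaving out 1 section at a time gave 3 to 20 genes in low-proliferation, 2 to 12 in intermediate and 23 to 43 in dense bins, 5 to 33 against PBS, 9 to 34 for the combination, 0 to 2 for the interaction, 0 to 1 for antiPD1, 1 to 32 for classes by CpG-STAT3ASO and 2 to 6 pairs. Nfkbia by CpG-STAT3ASO ran from -0.31 to 0.12 and Tlr9 per macrophage marker molecule from -0.040 to 0.25. With the replicate number as a block 41 genes were called over the whole section and 1 for antiPD1, Tlr9 stayed at 2.22, and no member's call changed. Deviations of same-numbered sections correlated at -0.53 to 0.59, with mixed signs. With 2 sections a treatment, these values cannot decide whether the numbers pair any sections, and the labels do not say. The cause of these changes was not tested.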

Other observations

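In CpG-STAT3ASO replicate 2, 4 adjacent low-proliferation bins held 224 of the section's 397 Il6 molecules (56.4%) and only 6 molecules of FP codes. These bins were chosen for their Il6, so the other genes in them are given as a description. Per bin they held 35.0 Il1b molecules against 0.609 in the other 1571 low-proliferation bins and 44.8 against 1.42 of Ccr7, a receptor of migrating dendritic cells. Ccr2, a monocyte receptor, was at 21.0 against 0.647, Cd80 at 13.8 against 0.596 and Il12b at 7.50 against 0.265. Tlr9 was at 8.50 against 1.43 and Nfkbia at 65.3 against 15.4 molecules per bin. The bins were also richer in molecules of all genes. Those 3 with at least 10 Il6 molecules held 3042, 2330 and 3101 gene molecules. All 1575 low-proliferation bins of the section together held 1446991. The part of this depth in the values above was not tested. Over all 8 sections 6 bins held at least 10 Il6 molecules, with 1 in each antiPD1 section, 3 in CpG-STAT3ASO replicate 2 and 1 in combination replicate 2. Without these bins the Il6 difference by CpG-STAT3ASO was 1.22 (limma adjusted p = 0.0598), an alternative chosen after seeing the data.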
